A study of Mus musculus with 6 samples.

Results

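R-spondins are secreted proteins that strengthen Wnt signalling, and 9 genes of this system were followed in epidermal basal cells of virgin and pregnant mice. They were the 4 ligands Rspo1, Rspo2, Rspo3 and Rspo4, the 3 receptors Lgr4, Lgr5 and Lgr6, and the 2 transmembrane ubiquitin ligases Znrf3 and Rnf43. Members were chosen by name: every probe set that the platform annotation gives to one of these genes was used, which came to 15 probe sets, and the 9 genes stand among 18194 genes on the array. No signal decided which genes or probe sets belong. The family itself, however, was selected on the low signals of Rspo3 and Lgr6 in the 16 dpc ventral arrays. The values of those genes are therefore given as a description without a p-value, though counts of genes past a threshold name them. Where such counts, counts of members without overlap or medians include them, these follow from that selection and support nothing.

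R-spondins bind Lgr4, Lgr5 or Lgr6 together with Znrf3 or Rnf43. Left alone, Znrf3 and Rnf43 mark Frizzled receptors and Lrp6 for removal from the cell surface, and an R-spondin bound to both partners clears the ligase instead, so that more Wnt receptors stay at the membrane. In mouse skin, Lgr5 is known as a mark of cells of the lower hair follicle bulge, and Lgr6 as a mark of cells of the follicle isthmus and of part of the interfollicular epidermis.

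All samples were α6-integrin-positive, propidium iodide-negative cells sorted from the skin of C57BL/6 females that carried no transgene named in the labels, and their RNA was hybridised to an Affymetrix mouse 3′ expression array. The groups were ventral skin at 16 days post coitum (dpc), dorsal skin at 16 dpc and ventral skin of virgin females, with 2 arrays each and an age of 10 weeks in the sample labels (8 to 12 weeks in the design text). The gestation day is that of the labels, from which the column headers of the files deviate slightly. No label says whether the 2 arrays of a group came from separate animals, so errors and p-values measure only the spread between these samples, and virgin dorsal cells were not analysed here. The column headers carry 1 date code for the 3 arrays numbered replicate 1 and another for the 3 numbered replicate 2, without saying what was dated, so differences are also given within each number.

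The value of a probe set was a linear signal in arbitrary units, scaled to one trimmed mean on every array, with a detection call of present, marginal or absent. From 47.2% to 53.3% of probe sets were called present per array, the lowest signal called present was 6.34 to 11.3, and the 2 arrays of a group correlated at 0.972 to 0.977 over log2 signals. Genes of the basal keratinocyte were present throughout: all 9 of 9 listed markers were called present on both arrays of each group, and Itga6, which encodes the sorted α6-integrin, read 15226 and 16846 in 16 dpc ventral cells, 15364 and 19079 in 16 dpc dorsal cells and 17403 and 16493 in virgin ventral cells. The ratio of 3′ to 5′ actin signal, a measure of RNA integrity, was 3.90 on replicate 2 of the 16 dpc ventral group and 4.47 on replicate 2 of the 16 dpc dorsal group, against 1.78 to 2.46 on the other 4 arrays. In bulk RNA of this kind, fewer cells of a type and less RNA per cell cannot be told apart.

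Of the 15 probe sets, 6 were called present on all 6 arrays and 8 were called absent on all 6. The remaining probe set, of Lgr5, was present on 5 arrays. A gene was tested when its probe set of highest mean log2 signal had present calls on both arrays of 1 or more groups, which left 6 of the 9 genes: Rspo3, Lgr4, Lgr5, Lgr6, Znrf3 and Rnf43.

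**Figure D1:**
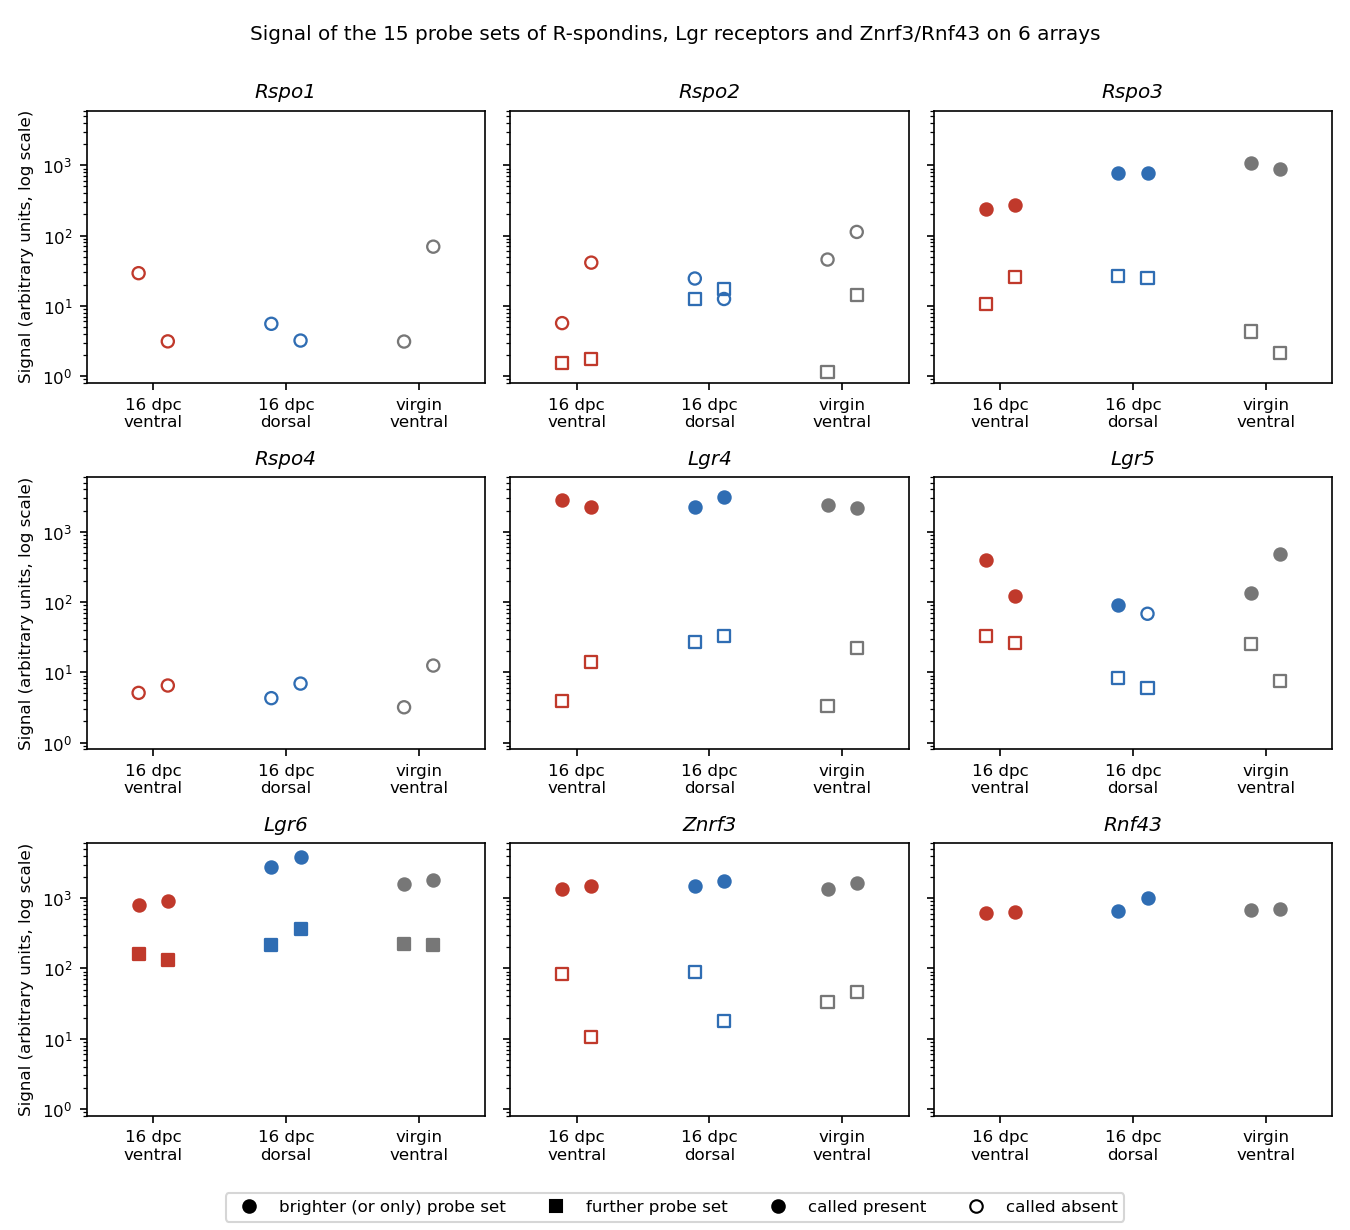
Signal of each of the 15 probe sets on each of the 6 arrays (log axis, arbitrary units), 1 panel per gene, with 16 dpc ventral, 16 dpc dorsal and virgin ventral arrays from left to right. Circles are the probe set of highest mean signal and squares a further probe set of the gene, filled where called present and open where called absent. Rspo3 sat at 241 and 276 on the 16 dpc ventral arrays and from 778 to 1086 on the other 4, Lgr6 was lowest on the 16 dpc ventral arrays, and every point of Rspo1, Rspo2 and Rspo4 is open.

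The promoters of the receptors Lgr6 and Lgr4 are shown because both receptors were detected on all arrays, with arrays separated by group for Lgr6 and overlapping for Lgr4. The sequences are from RefSeq (GRCm38.p6), 300 bases each, from 250 before to 50 after the annotated start, and 5 of the 9 genes had an entry (Rspo1, Rspo4, Lgr4, Lgr6 and Rnf43). Lgr6 is at chr1:135105227-135105526 on the minus strand and Lgr4 at chr2:109917397-109917696 on the plus strand. Capitals mark CCAAT boxes in the Lgr4 window and, in the Lgr6 window, GC boxes, whose letters GGGCGG lie on the opposite strand.
Lgr6: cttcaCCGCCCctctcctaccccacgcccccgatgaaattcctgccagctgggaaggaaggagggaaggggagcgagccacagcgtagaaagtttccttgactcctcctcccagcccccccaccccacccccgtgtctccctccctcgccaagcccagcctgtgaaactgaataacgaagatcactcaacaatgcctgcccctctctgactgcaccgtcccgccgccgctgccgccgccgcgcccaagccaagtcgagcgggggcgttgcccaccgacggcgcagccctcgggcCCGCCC
Lgr4: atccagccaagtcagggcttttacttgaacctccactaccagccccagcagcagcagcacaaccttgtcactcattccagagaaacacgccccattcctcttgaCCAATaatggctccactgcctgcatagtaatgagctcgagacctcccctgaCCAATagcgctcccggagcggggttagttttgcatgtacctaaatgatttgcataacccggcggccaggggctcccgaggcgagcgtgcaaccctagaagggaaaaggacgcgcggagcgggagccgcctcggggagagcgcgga
Searched on both strands were the TCF/LEF core CTTTG, its longer form CTTTGAT (which contains the core), the T-box motif AGGTGT, the CCAAT box, the GC box GGGCGG and the TATA box TATAAA. The Lgr6 window held 2 GC boxes and the Lgr4 window 2 CCAAT boxes, and none of the other motifs matched in either. Among 32851 mouse promoter windows of the same length, 35.7% held a GC box, 37.4% a CCAAT box, 53.9% the TCF/LEF core, 3.73% its longer form, 13.7% the T-box motif and 13.6% a TATA box. GC content was 67.7% in the Lgr6 window and 58.3% in the Lgr4 window.

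Rspo3 was the only R-spondin detected in these cells. Its signal was 241 and 276 on the 16 dpc ventral arrays, 787 and 778 on the 16 dpc dorsal arrays and 1086 and 877 on the virgin ventral arrays, called present on all 6. The 16 dpc ventral arrays were the lowest and did not overlap with either other group. The log2 difference was -1.92 ± 0.20 (SE) for 16 dpc ventral over virgin ventral cells, which is 3.79-fold lower, and -1.60 ± 0.20 for 16 dpc ventral over 16 dpc dorsal cells, which is 3.03-fold lower. Both comparisons use the same 16 dpc ventral arrays. Between replicates of the same number the difference was -2.17 and -1.67 against virgin cells and -1.71 and -1.497 against dorsal cells.

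The dorsal arrays lay next to the virgin arrays in the order of Rspo3 levels. Their difference, 16 dpc dorsal over virgin ventral, was -0.32 ± 0.20 in log2 with a 95% interval from -0.77 to 0.13, so these neighbours did not separate beyond their error although the arrays did not overlap. A second Rspo3 probe set, 1443187_at, was called absent on all 6 arrays, with signals of 10.7 and 26.0 in 16 dpc ventral, 26.3 and 24.9 in 16 dpc dorsal and 4.33 and 2.14 in virgin ventral cells. It carries no measurement of the gene in any group, and no fold change is given for it.

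The other 3 ligands were not called present on any array. Rspo1 had signals of 29.2 and 3.13 in 16 dpc ventral, 5.56 and 3.21 in 16 dpc dorsal and 3.11 and 69.6 in virgin ventral cells. The 2 probe sets of Rspo2 ranged from 1.16 to 113, and Rspo4 read 5.10 and 6.49 in 16 dpc ventral, 4.29 and 6.91 in 16 dpc dorsal and 3.18 and 12.5 in virgin ventral cells. An absent call at such signals gives only an upper bound on these transcripts, and no difference between groups was taken from them.

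Rspo3 is also made by cells of the dermis, so genes of other skin cells that could have passed the sort are given beside it. Of 11 fibroblast genes, 4 passed the detection filter, Pdgfra, Lum and Dpt were not called present on any array by any of their probe sets, and the summed signal of the list was 3418 to 3525 in 16 dpc ventral, 2267 to 2627 in 16 dpc dorsal and 2522 to 3299 in virgin ventral cells. Most of that sum came from Sparc and Vim, which other cells express as well. The proteoglycan gene Dcn read 39.1 and 33.0 (absent) in 16 dpc ventral cells, 12.0 and 42.3 (absent) in 16 dpc dorsal cells and 122 and 196 (present) in virgin ventral cells. The part of fibroblast RNA in the Rspo3 values was not tested.

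Of 8 endothelial genes, 2 passed the filter, and Pecam1, Cdh5, Kdr, Tek and Tie1 were not called present on any array. The endothelial sum was 265 to 322 in 16 dpc ventral, 286 to 357 in 16 dpc dorsal and 291 to 361 in virgin ventral cells. Of the 4 Schwann cell and nerve genes on the array, 2 passed, Sox10 was not called present on any array, and the sum was 1389 to 1705 in 16 dpc ventral, 1998 to 2010 in 16 dpc dorsal and 2015 to 2464 in virgin ventral cells. This sum, most of it the myelin gene Mbp, was lowest in the 16 dpc ventral group as Rspo3 was, and its part in the Rspo3 values was not tested. Mammary epithelium, whose basal cells also carry α6-integrin, was followed with 12 genes, of which 9 passed the filter, none was called in any comparison and the milk protein gene Lalba was not called present on any array. Their summed signal was 4863 to 13212 in 16 dpc ventral, 5776 to 6080 in 16 dpc dorsal and 4522 to 8004 in virgin ventral cells. The simple epithelial keratin gene Krt8 read 104 (present) and 9.98 (absent) in 16 dpc ventral, 47.6 and 34.3 (absent) in 16 dpc dorsal and 220 and 474 (present) in virgin ventral cells, and the casein gene Csn2 read 6185 and 699 in 16 dpc ventral, 204 and 348 in 16 dpc dorsal and 172 (present) and 2.29 (absent) in virgin ventral cells. Keratin genes of this list were thus highest in virgin cells (Krt18 and Krt19 as well), and Csn2 was highest in 16 dpc ventral cells. Their part in the values of Rspo3 and the receptors was not tested.

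Genes of epidermal immune cells had a higher sum at 16 dpc, and 7 of 8 passed the filter. Of these, 2 (Csf1r and Thy1) were called higher in 16 dpc ventral than in virgin ventral cells, where 0.136% of all 10994 genes were called higher. The summed signal was 8714 to 8988 in 16 dpc ventral, 6730 to 7057 in 16 dpc dorsal and 2220 to 3504 in virgin ventral cells. H2-Aa and Thy1 made up most of that sum. The part of the higher immune sum in the comparisons with virgin cells was not tested.

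Among the receptors, the arrays of the 3 groups were separated for Lgr6 and overlapped for Lgr4. The probe set of highest signal for Lgr6, 1436218_at, read 788 and 903 in 16 dpc ventral cells, 2778 and 3880 in 16 dpc dorsal cells and 1567 and 1783 in virgin ventral cells, all called present. The 3 groups did not overlap: dorsal arrays were highest, virgin ventral arrays lay between and 16 dpc ventral arrays were lowest. The log2 difference of Lgr6 was -1.96 ± 0.20 (SE) for 16 dpc ventral over 16 dpc dorsal cells, which is 3.89-fold lower, and -0.99 ± 0.20 for 16 dpc ventral over virgin ventral cells, which is 1.98-fold lower. In 16 dpc dorsal over virgin ventral cells the log2 difference was 0.97 ± 0.20, with a 95% interval from 0.53 to 1.42. That interval is not adjusted for the number of genes tested or for the selection of the family on Lgr6, and no gene was called in this comparison. Within replicate numbers 1 and 2 the differences were -1.82 and -2.10 against dorsal cells, -0.99 and -0.98 against virgin ventral cells, and 0.83 and 1.12 for dorsal over virgin ventral cells. By group mean, the order of Lgr6 at this probe set differed from that of Rspo3, which was highest in virgin cells. For Rspo3, however, virgin and dorsal cells did not separate beyond their error.

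The second Lgr6 probe set, 1427028_at, was also present on all 6 arrays. It read 162 and 134 in 16 dpc ventral, 215 and 360 in 16 dpc dorsal and 223 and 212 in virgin ventral cells. Both probe sets had their lowest signals on the 16 dpc ventral arrays, without overlap with either other group. The log2 difference at this probe set was smaller, -0.92 against 16 dpc dorsal and -0.56 against virgin ventral cells, and its dorsal and virgin arrays overlapped.

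Lgr6 marks the follicle isthmus, so genes of the isthmus and sebaceous gland are set beside it. Of 7 on the array, 5 passed the filter and none was called in any of the 3 comparisons. Their summed signal was 17069 to 31925 in 16 dpc ventral, 15470 to 28706 in 16 dpc dorsal and 21911 to 24603 in virgin ventral cells. Most of that sum came from Scd1 and Mgst1. The isthmus genes Plet1 and Lrig1 were present on all arrays. Plet1 read 2065 and 1637 in 16 dpc ventral, 2414 and 1776 in 16 dpc dorsal and 2010 and 2251 in virgin ventral cells, and Lrig1, which encodes a brake on growth factor receptors, read 2867 and 2117 in 16 dpc ventral, 3177 and 2779 in 16 dpc dorsal and 3667 and 4217 in virgin ventral cells. The part of isthmus and sebaceous cells in the Lgr6 values was not tested.

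Lgr4, the receptor of the family known to be widely expressed in epithelia, read 2821 and 2211 in 16 dpc ventral cells, 2239 and 3077 in 16 dpc dorsal cells and 2433 and 2165 in virgin ventral cells. All groups overlapped. The log2 difference was 0.12 for 16 dpc ventral over virgin ventral (95% interval -0.33 to 0.58, adjusted p = 0.859, limma) and -0.07 for 16 dpc ventral over 16 dpc dorsal (-0.53 to 0.38, adjusted p = 0.9999). A further Lgr4 probe set, 1453765_at, was absent on all arrays, with signals from 3.29 to 33.1.

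**Figure D2:**
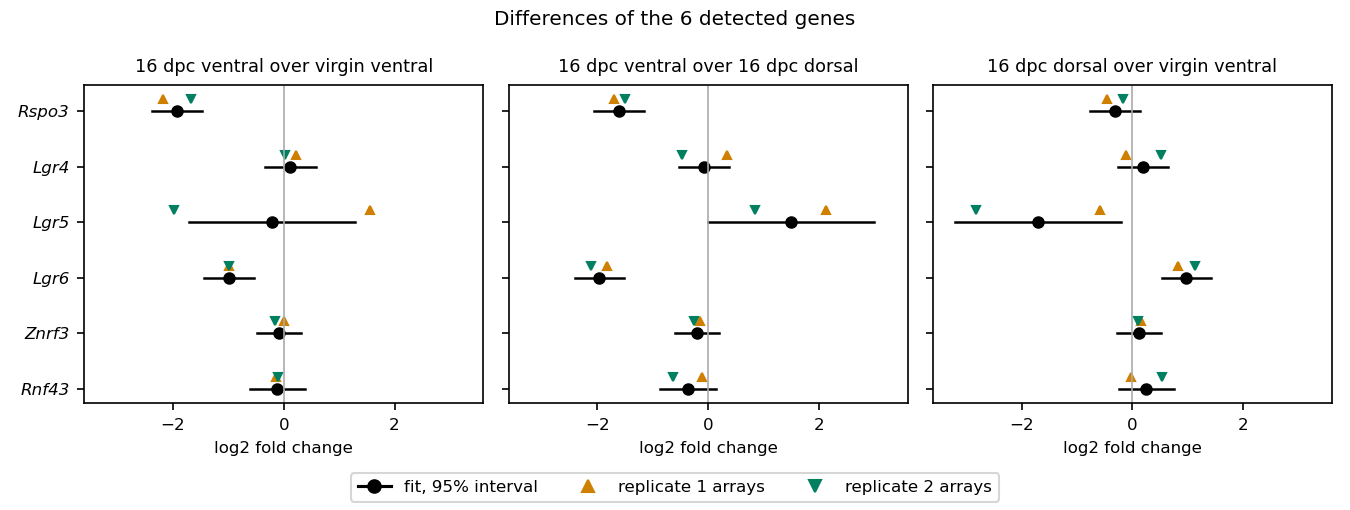
Log2 fold change of the 6 detected genes in the 3 comparisons (x axis). Black points with bars are the fitted difference with its 95% interval, and triangles are the differences between arrays with replicate number 1 (up) or 2 (down). Rspo3 and Lgr6 lie below 0 for both triangles in both comparisons of 16 dpc ventral cells, whereas the triangles of Lgr5 fall on opposite sides of 0 against virgin ventral cells. Low signals of Rspo3 and Lgr6 selected the family, so their intervals are a description only.

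Lgr5 differed widely between the arrays of each ventral group. Its probe set 1450988_at read 392.3 and 122.6 in 16 dpc ventral cells, 89.5 (present) and 68.0 (absent) in 16 dpc dorsal cells and 134 and 484 in virgin ventral cells. The 16 dpc ventral and virgin ventral arrays overlapped, and both dorsal arrays were below all 4 ventral arrays. The log2 difference was -0.22 ± 0.66 (SE) for 16 dpc ventral over virgin ventral (adjusted p = 0.932, limma), and it was 1.55 between arrays of replicate number 1 and -1.98 between those of number 2. For 16 dpc ventral over 16 dpc dorsal it was 1.49 ± 0.66 (95% interval -0.01 to 2.99, adjusted p = 0.984), and for 16 dpc dorsal over virgin ventral -1.71 ± 0.66 (-3.20 to -0.21, adjusted p = 0.663). None of these passed the threshold of 0.05 after adjustment over all genes. The other Lgr5 probe set, 1444519_at, was absent on all arrays, with signals from 6.02 to 32.5.

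Genes of the hair follicle bulge are set beside Lgr5, and 2 of them, picked after their values were seen, had much the same order of arrays. Cd34, a surface marker of bulge cells, read 333 and 184 in 16 dpc ventral cells, 68.4 and 53.4 in 16 dpc dorsal cells and 85.4 and 391 in virgin ventral cells. Lhx2, a transcription factor of follicle stem cells, read 423 and 243 in 16 dpc ventral, 181 and 100 in 16 dpc dorsal and 223 and 662 in virgin ventral cells. Replicate 2 of the virgin ventral group was the highest array for Lgr5, Cd34 and Lhx2, replicate 1 of the 16 dpc ventral group came next, and replicate 2 of the 16 dpc dorsal group was the lowest for each. Tcf7l1 (243), Sox9 (716), Postn (4130) and Fgf18 (65.0, absent) were also highest on replicate 2 of the virgin ventral group. The rest of the list had its highest signal elsewhere. Nfatc1 was highest on 16 dpc dorsal replicate 1 (750) and Col6a1 on 16 dpc ventral replicate 2 (697). Krt24 was highest on 16 dpc ventral replicate 1 (221) and Barx2 on virgin ventral replicate 1 (1586). The summed signal of the 10 bulge and outer root sheath genes was 5704 to 6612 in 16 dpc ventral, 4192 to 4223 in 16 dpc dorsal and 6124 to 8635 in virgin ventral cells, with 9 of the 10 past the detection filter, Fgf18 absent on all arrays and no gene called in any comparison. The part of bulge genes, and of the actin ratio given above, in the Lgr5 values was not tested.

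**Figure D3:**
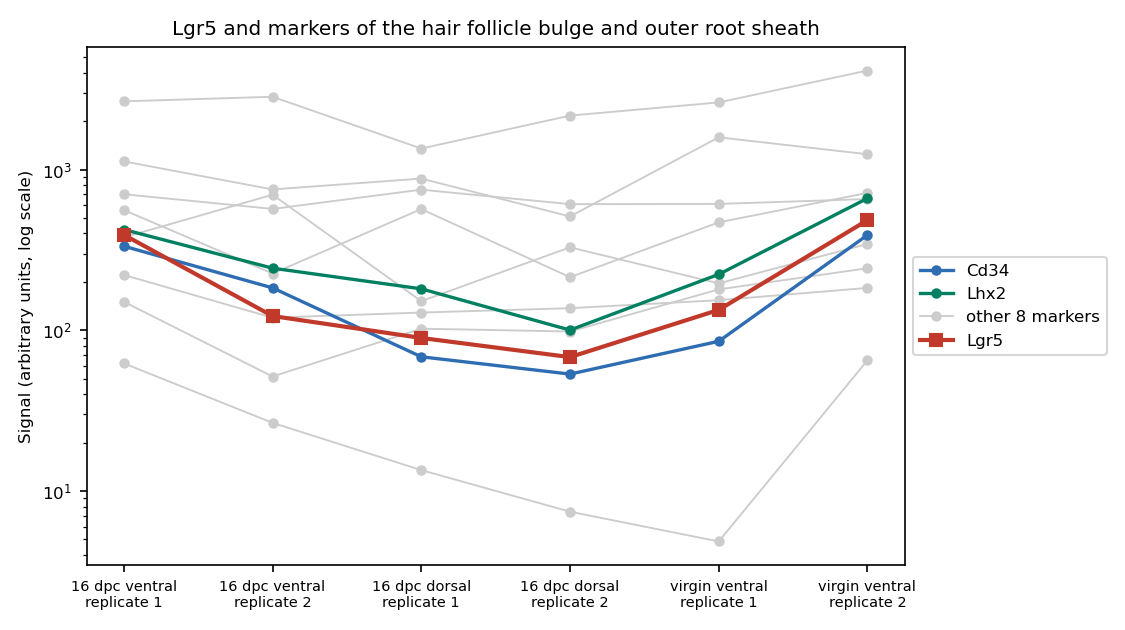
Signal (log axis, arbitrary units) of Lgr5, of the bulge genes Cd34 and Lhx2 and of 8 further bulge and outer root sheath genes (grey) on the 6 arrays, listed by group and replicate along the x axis. Lgr5, Cd34 and Lhx2 are highest on virgin ventral replicate 2 (484, 391 and 662) and lowest on 16 dpc dorsal replicate 2 (68.0, 53.4 and 100), and lines only join the points of a gene.

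Both ubiquitin ligases were detected on all arrays with small differences between groups. Znrf3 read 1333 and 1467 in 16 dpc ventral, 1478 and 1746 in 16 dpc dorsal and 1332 and 1638 in virgin ventral cells. Its log2 difference was -0.08 for 16 dpc ventral over virgin ventral (95% interval -0.48 to 0.32, adjusted p = 0.906, limma) and -0.20 for 16 dpc ventral over 16 dpc dorsal (-0.60 to 0.20, adjusted p = 0.9999). A further Znrf3 probe set, 1437646_at, was absent on all arrays, with signals from 10.5 to 89.9. Rnf43 read 613 and 645 in 16 dpc ventral, 660 and 994 in 16 dpc dorsal and 671 and 690 in virgin ventral cells. The 16 dpc ventral arrays were the lowest for Rnf43, but the log2 differences were only -0.12 against virgin ventral (95% interval -0.62 to 0.39, adjusted p = 0.884) and -0.37 against 16 dpc dorsal cells (-0.87 to 0.13, adjusted p = 0.9999). Differences of these sizes were within the error of 2 arrays a group, and the intervals leave room for changes of the size they span.

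Counted over the whole array, 1 of the 6 tested members (Rspo3) was called lower and none higher in 16 dpc ventral than in virgin ventral cells at an adjusted p under 0.05, where 0.2% of all 10994 genes were called (0.136% higher and 0.0637% lower). In 16 dpc ventral against 16 dpc dorsal cells 2 members (Rspo3 and Lgr6) were called lower and none higher, where 0.0819% of genes were called (0.0455% higher and 0.0364% lower). No gene at all was called in 16 dpc dorsal against virgin ventral cells (0% of 10994). When every probe set was fitted on its own, no probe set of a member was called in any comparison, where 0%, 0.00434% and 0% of 23017 probe sets were called in the 3 comparisons in turn. With the replicate number, and so the date code, as a block, Lgr6 was called lower in 16 dpc ventral than in virgin ventral cells too, so that 2 members were called there, 2 against dorsal cells and 0 in 16 dpc dorsal against virgin ventral cells, where 0.782%, 0.146% and 0.1% of genes were called (86, 16 and 11). Since these arrays were what drew attention to Rspo3 and Lgr6, nothing is read from the counts. When single arrays were left out of the fit without a block, no call of Rspo3 or Lgr6 held throughout. The call of Rspo3 against dorsal cells was lost each time. The number of calls over all genes changed with these omissions as well. Each omission leaves 1 array in a group, so only effect sizes are given for them. Over the 6 omissions the log2 differences of Rspo3 ran from -2.07 to -1.77 against virgin cells and from -1.70 to -1.51 against dorsal cells. Those of Lgr6 against dorsal cells ran from -2.20 to -1.72.

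Arrays of the groups compared did not overlap for 3 members in the lower direction (Rspo3, Lgr6 and Rnf43) and none in the higher direction in 16 dpc ventral against virgin ventral cells, where 19.8% of all tested genes were separated in the lower and 23.8% in the higher direction. In 16 dpc ventral against 16 dpc dorsal cells 4 members were separated in the lower direction (Rspo3, Lgr6, Znrf3 and Rnf43) and 1, Lgr5, in the higher direction, against 19.7% and 13.1% of all genes. In 16 dpc dorsal against virgin ventral cells 2 members, Rspo3 and Lgr5, were lower without overlap and 1, Lgr6, higher, against 13.6% and 24.3% of all genes. The median log2 difference of the 6 members was -0.17, -0.28 and 0.16 in these 3 comparisons in turn, and that of all genes 0.02, -0.03 and 0.07. Rspo3 and Lgr6, whose low 16 dpc ventral signals selected the family, are among these members. Nothing is therefore read from these counts and medians.

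Genes around the R-spondin system in the Wnt pathway were read from the same fit. Of 12 Frizzled receptor and LRP co-receptor genes, 10 were tested and none was called in any comparison. The largest differences were those of the co-receptor Lrp5 (-0.46 in log2, adjusted p = 0.757, limma) and the receptor Fzd7 (-0.38, adjusted p = 0.681) in 16 dpc ventral against virgin ventral cells, and of the receptors Fzd3 (-0.88, adjusted p = 0.601) and Fzd2 (0.31, adjusted p = 0.9999) in 16 dpc ventral against 16 dpc dorsal cells. Fzd3 read 351 and 297 in 16 dpc ventral, 636 and 559 in 16 dpc dorsal and 482 and 314 in virgin ventral cells. It was lowest in the 16 dpc ventral and highest in the dorsal group, and only replicate 2 of the virgin group overlapped with the 16 dpc ventral arrays.

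Heparan sulphate proteoglycans, which hold secreted ligands at the cell surface, were tested for 5 of 8 genes, with none called. Gpc1, a glypican, read 2551 and 2490 in 16 dpc ventral, 1826 and 1938 in 16 dpc dorsal and 2102 and 1800 in virgin ventral cells, highest on both 16 dpc ventral arrays. Its log2 difference was 0.37 against virgin ventral (adjusted p = 0.396, limma) and 0.42 against dorsal cells (adjusted p = 0.810). Sdc2, a syndecan, differed by -0.35 against virgin ventral (adjusted p = 0.609) and by 0.42 against dorsal cells (adjusted p = 0.9999).

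Of 14 genes of the intracellular relay on the array, 12 were tested and none was called. Tcf7l1, a TCF/LEF factor also known from the bulge, read 150 (present) and 51.5 (absent) in 16 dpc ventral, 102 and 98.2 in 16 dpc dorsal and 180 and 243 in virgin ventral cells, and its log2 difference against virgin cells was -1.25 ± 0.48 (SE, adjusted p = 0.382, limma). Lef1, its relative, was not called present on either 16 dpc ventral array (36.1 and 27.6), was 25.3 (absent) and 49.0 (present) in 16 dpc dorsal cells and was present at 53.3 and 98.1 in virgin ventral cells (adjusted p = 0.453 for 16 dpc ventral over virgin ventral). Both were highest on the virgin arrays, without passing the threshold. Against dorsal cells the largest differences of this list were -0.22 for Bcl9, a β-catenin cofactor, and -0.21 for Gsk3a, a kinase of the β-catenin destruction complex (adjusted p = 0.9999 for each).

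Transcriptional targets and feedback genes of the pathway were tested for 11 of 18 genes, with none called. Axin2, a feedback gene used as a readout of Wnt signalling, read 1156 and 1488 in 16 dpc ventral, 1610 and 1721 in 16 dpc dorsal and 1621 and 1613 in virgin ventral cells. Its 16 dpc ventral arrays were below the other 4, with a log2 difference of -0.30 ± 0.17 (SE) against virgin ventral (adjusted p = 0.539, limma) and -0.34 ± 0.17 against dorsal cells (adjusted p = 0.9999). Nkd2, which encodes an antagonist of Dishevelled, read 228 (marginal) and 117 (absent) in 16 dpc ventral, 403 and 273 (present) in 16 dpc dorsal and 244 (absent) and 417 (present) in virgin ventral cells, with adjusted p = 0.396 against virgin ventral and 0.867 against dorsal cells. Sox9, a follicle transcription factor, differed by -0.71 against virgin ventral cells (adjusted p = 0.654), and Cd44, a hyaluronan receptor, by 0.60 against dorsal cells (adjusted p = 0.767). The median log2 difference of the 4 lists, in the order given, was -0.14, -0.07, -0.11 and -0.21 against virgin ventral cells (0.02 over all genes) and -0.06, 0.05, -0.15 and -0.06 against dorsal cells (-0.03 over all genes).

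**Figure D4:**
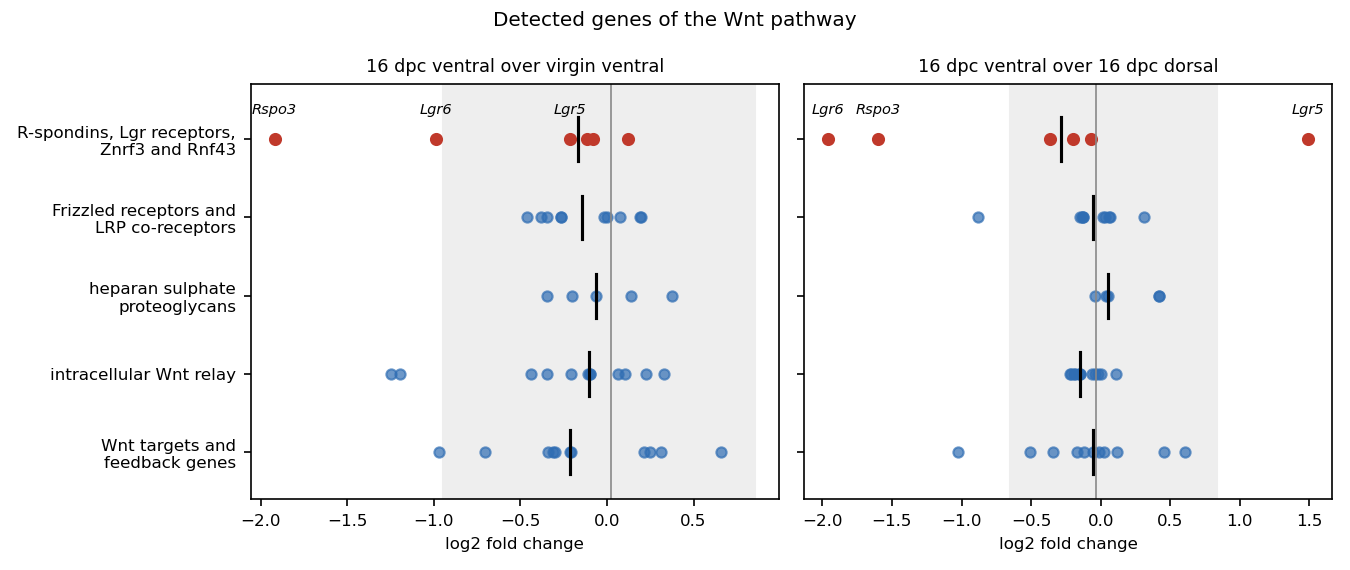
Log2 fold change of each tested gene of the R-spondin system (top row) and of 4 lists of Wnt pathway genes, for 16 dpc ventral over virgin ventral cells (left) and 16 dpc ventral over 16 dpc dorsal cells (right). Black ticks are list medians, the grey line is the median of all 10994 genes and the shaded band holds the middle 95% of them. Rspo3 and Lgr6 lie left of the band in both panels and Lgr5 right of it on the right, while most genes of the other lists lie inside. The family was selected on the low 16 dpc ventral signals of Rspo3 and Lgr6. Their place left of the band follows from that selection, and no contrast with the other lists is read from it.

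The genes whose profile over the 6 arrays was nearest to Rspo3 were found by the root mean square difference of log2 signals, each gene centred on its own mean, among 10547 genes with an established name. They were the glutamate transporter gene Slc1a1 (0.25), the chemokine receptor gene Ccr9 (0.28), the neuropeptide Y receptor gene Npy1r (0.29), Sectm1b (0.29) and the protein kinase A inhibitor gene Pkib (0.31). Ccr9 read 26.2 and 22.8 in 16 dpc ventral, 99.5 and 85.7 in 16 dpc dorsal and 122 and 137 in virgin ventral cells, and Pkib read 1020 and 912 in 16 dpc ventral, 2215 and 2017 in 16 dpc dorsal and 2648 and 3608 in virgin ventral cells. Each had its lowest signals on both 16 dpc ventral arrays, as the measure selects for.

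Nearest to Lgr6 were the integrin gene Itga8 (0.25), the Ras exchange factor gene Rasgrf1 (0.31), the epithelial cytokine gene Tslp (0.34), the cell adhesion gene Cadm4 (0.34) and Cbs, which encodes cystathionine β-synthase (0.35). Cbs read 647 and 734 in 16 dpc ventral, 1841 and 1684 in 16 dpc dorsal and 1406 and 1395 in virgin ventral cells, the same order of groups as Lgr6. Lgr6 itself stood at rank 134 in nearness to Rspo3, and Rspo3 at rank 128 in nearness to Lgr6, with a root mean square difference of 0.58. The points share arrays and group structure, so nearness is a description over 6 arrays.

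**Figure D5:**
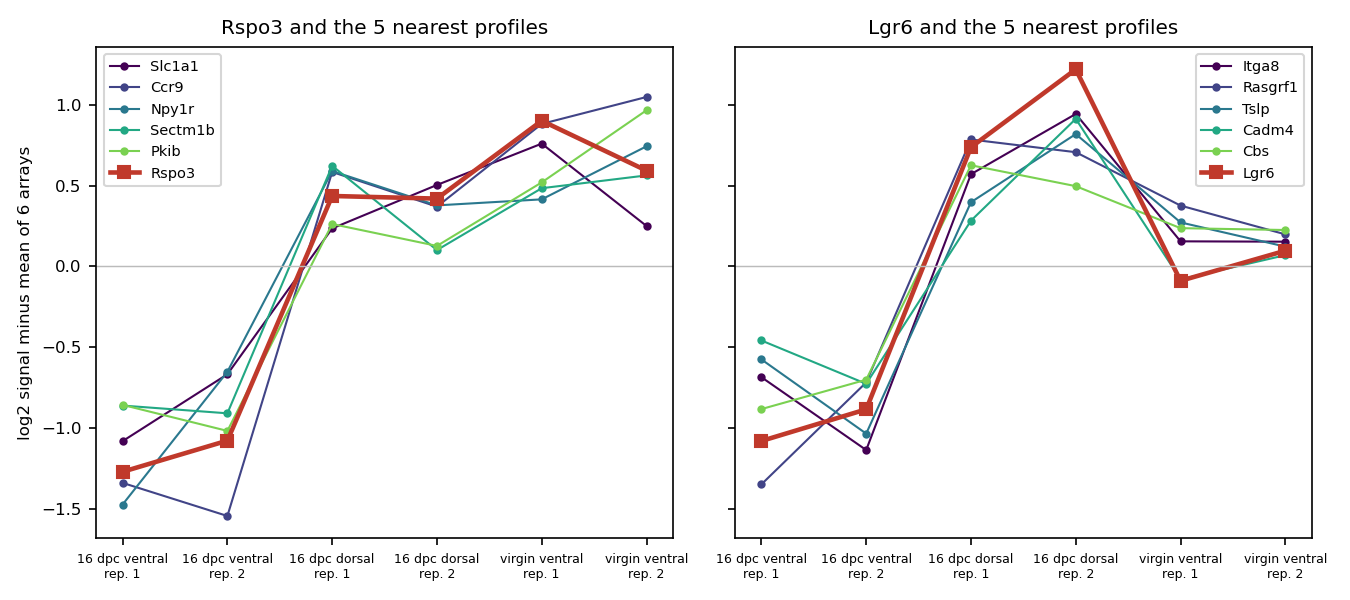
Log2 signal minus the mean of the 6 arrays for Rspo3 with its 5 nearest genes (left) and Lgr6 with its 5 nearest genes (right), arrays along the x axis by group and replicate. On the left the 16 dpc ventral arrays are low and the other 4 high, and on the right the dorsal arrays are highest with the virgin ventral arrays between, and lines only join the points of a gene.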

How the data were processed

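The Affymetrix 3′ array holds 45101 probe sets. The deposited files hold a linear signal intensity and a detection call per probe set. The authors made them with Affymetrix Expression Console 1 (per the submitters' processing notes), and the signals had a trimmed mean of 500.003 on each array, so a change of total RNA per cell cannot be seen. The sources used here name no genome build.

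Signals were floored at 1 and transformed to log2, without normalization beyond that of the authors. Platform annotation named 1 gene for 34958 probe sets, several for 932 and none for 9147, and 34754 matched RefSeq genes, with 0 symbols changed. The probe set of highest mean log2 signal stood for a gene, and the 10994 of 18194 genes with present calls on both arrays of 1 or more groups were tested with limma 3.58.1 in R 4.3.3 (trend on mean level, all 6 arrays, 3 residual degrees of freedom, prior 5.79, two-sided, Benjamini-Hochberg over all genes, threshold 0.05). The limma step was tested on simulated data. The members and lists were chosen with earlier results of these data known. Named were all members, of each pathway list the called genes and the 2 with the largest change in each comparison of 16 dpc ventral cells, Axin2, and the 5 genes nearest to Rspo3 and to Lgr6, passing over predicted names. Marker genes given with values were chosen after their values were seen. Replicate numbers were taken to pair the arrays because the column headers give each number 1 date code in all 3 groups; deviations from group means correlated at 0.448 between equal numbers of 16 dpc ventral and dorsal arrays, 0.00694 for 16 dpc ventral and virgin ventral and 0.0289 for dorsal and virgin ventral arrays. The fit whose values are given had no block. Alternatives covered the choice of probe set, the filter, quantile normalization, a pseudocount of 16, the variance trend, a replicate block, fewer arrays and each array left out.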

Additional observations from a re-analysis of the deposited data

How the results depend on the processing

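Across 15 alternatives the log2 differences of the 6 tested members gave 267 values. Of these, 229 kept direction and side of the threshold, and 23 kept direction but were no longer past it. A further 2 came past it, 12 changed sign without being past it in either case and 1 that had been past it reversed. Most of the 229 had not been past the threshold in the main fit either. Those past it there were Rspo3 in both comparisons of 16 dpc ventral cells and Lgr6 against dorsal cells. Rspo3 stayed past it in 8 of the 15 alternatives against virgin ventral cells and in 5 against dorsal cells. Lgr6 stayed past it in 8 of the 15 against dorsal cells. The reversal was Rspo3 in 16 dpc ventral against virgin ventral cells, at 0.27 when the signals of all its probe sets were averaged, since the average includes 1443187_at, which is absent on every array. The number of members called against virgin ventral cells was 1. It was 0 with averaged probe sets, with every probe set fitted on its own (23017 probe sets) and without a variance trend. Against 16 dpc dorsal cells the number was 2. It was 0 there with averaged probe sets, with every probe set on its own, without a variance trend and with the 4 arrays of those groups alone. In 16 dpc dorsal against virgin ventral cells it was 0 under every alternative. Leaving out single arrays changed the calls of members in the comparisons of 16 dpc ventral cells, and the calls over all genes as well. The counts rest on Rspo3 and Lgr6, whose low signals selected the family, so nothing is read from them. Lgr6 ran from -2.20 to -1.44 against dorsal and from -1.08 to -0.78 against virgin ventral cells, and Rspo3 from -1.70 to -1.11 against dorsal cells.

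With a replicate block, 2 members (Rspo3 and Lgr6) were called against virgin ventral cells and 2 against dorsal cells, and over all genes 86 in place of 22, 16 in place of 9 and, in 16 dpc dorsal against virgin ventral cells, 11 in place of 0. The block changed no other call of a member. Without a variance trend the counts over all genes against virgin ventral and against dorsal cells were 0 and 1, with averaged probe sets 5 and 0, and with only the 4 arrays compared 46 and 0. Signals of absent probe sets (Rspo1, Rspo2 and Rspo4) bound the transcripts from above only, and 2 arrays a group limit all intervals.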
